A study of Mus musculus with 4 samples.

Results

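The genes described here are the muscle regulatory factors Myod1, Myog, Myf5 and Myf6 and the muscle stem cell factor Pax7. They were examined in a map of trimethylation of histone H3 at lysine 36 (H3K36me3) made by chromatin immunoprecipitation and sequencing (ChIP-seq) in mouse myocytes. H3K36me3 islands are the stretches scored in the authors' deposited lists, and whether input was used in making the lists is not given. The members were chosen by position: all islands that overlap 4 windows of the mm9 genome holding these 5 genes with their flanks. The mutant library had 16 such islands of 69798, and the wild-type library had 12 of 58326. The mutant cells carried a deletion of the muscle-specific enhancer of H19 and Igf2, an imprinted pair of a noncoding RNA gene and a growth factor gene, and the cells they were set against were wild type. Cells of both genotypes were FVB myoblasts taken from skeletal muscle at postnatal day 4, purified, passaged 5 to 10 times and harvested 24 hours after growth factors were withdrawn. There was 1 H3K36me3 library per genotype, so no test of genotype was possible, no p-value is given, and differences below are differences between 2 libraries.

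H3K36me3 is laid down behind elongating RNA polymerase II, so in most genes it is low at the start and builds up along the transcribed body. Myod1, Myf5, Myf6 (also called MRF4) and Myog encode basic helix-loop-helix factors that bind the E-box, CANNTG, together with E proteins. Myf5 and Myod1 commit cells to the muscle lineage, Myog drives their differentiation into myotubes, and Myf6 is the form most abundant in mature mouse muscle. Pax7 encodes a paired-box factor that marks satellite cells, the stem cells of muscle, and is normally lowered as myoblasts differentiate.

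Of the members, only Myog, Myf5 and Pax7 were matched in the RefSeq promoter table, so the start sites of Myod1 and Myf6 are not shown. Islands of both libraries began close to the approximate Myog start, while none lay over Myf5 or in the part of the Pax7 window where Pax7 would begin. The 3 promoters were matched by symbol in the RefSeq table (GRCm38.p6; 250 bases before to 50 after the gene start), are written 5′ to 3′ on the gene's strand, and have E-boxes in capitals. Their coordinates are of another build than the islands, chr1:134289754-134290053 (plus strand) for Myog, chr10:107486085-107486384 (minus strand) for Myf5 and chr4:139832919-139833218 (minus strand) for Pax7.
Myog: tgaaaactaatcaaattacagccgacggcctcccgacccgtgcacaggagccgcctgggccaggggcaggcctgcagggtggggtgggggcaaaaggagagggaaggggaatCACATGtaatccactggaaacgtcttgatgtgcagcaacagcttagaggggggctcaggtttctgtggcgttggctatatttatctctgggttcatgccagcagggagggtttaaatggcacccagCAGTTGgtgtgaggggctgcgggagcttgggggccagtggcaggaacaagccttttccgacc
Myf5: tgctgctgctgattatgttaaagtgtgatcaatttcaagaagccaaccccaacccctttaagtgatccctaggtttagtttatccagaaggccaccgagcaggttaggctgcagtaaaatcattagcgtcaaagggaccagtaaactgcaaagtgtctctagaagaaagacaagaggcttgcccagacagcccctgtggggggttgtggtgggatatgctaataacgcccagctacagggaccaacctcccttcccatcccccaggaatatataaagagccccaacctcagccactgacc
Pax7: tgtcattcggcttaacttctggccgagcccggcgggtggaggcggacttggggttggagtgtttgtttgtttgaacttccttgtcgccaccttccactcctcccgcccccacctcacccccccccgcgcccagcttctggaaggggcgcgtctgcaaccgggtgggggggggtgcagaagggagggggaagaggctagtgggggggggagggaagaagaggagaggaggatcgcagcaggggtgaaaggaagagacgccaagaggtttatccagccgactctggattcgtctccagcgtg
The search for CANNTG, which reads the same on both strands, found 2 E-boxes in the Myog promoter, CACATG at position -138 and CAGTTG at position -12 from the start, and 0 in those of Myf5 and Pax7. At least 1 E-box was present in 72.3% of the 32851 promoters of the table, and at least 2 in 39.6%. These letters describe the window and do not show binding.

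In the lists as deposited, island cover of a window differed by at most 4.00 percentage points between the 2 libraries. It was far lower in the Myf5 and Myf6 window than in those of Myod1, Myog and Pax7, which lay between 32.4% and 44.0%. The windows differ in length, so percentages of different windows are not strictly like for like. Islands covered 44.0% of the 15 kb Myod1 window in the mutant (exact binomial 95% interval over 200 bp bins 32.5% to 55.9%) and 40.0% in the wild type (28.9% to 52.0%). They covered 41.3% of the 15 kb Myog window in the mutant (30.1% to 53.3%) and 38.7% in the wild type (27.6% to 50.6%). Of the 45 kb Myf5 and Myf6 window they covered 3.56% in the mutant (1.55% to 6.89%) and 0% in the wild type (0% to 1.63%). Of the 102 kb Pax7 window they covered 32.4% in the mutant (28.3% to 36.6%) and 36.1% in the wild type (31.9% to 40.4%). These intervals cover counting error only, and neighbouring bins belong to the same islands, so they are too narrow. Fewer cells with the mark and less of it per cell cannot be told apart in these bulk libraries. Within each library the intervals of Myod1, Myog and Pax7 overlapped, and each lay above that of Myf5 and Myf6. Mutant minus wild type was 4.00 points at Myod1 (95% interval -11.5 to 19.3) and 2.67 at Myog (-12.7 to 17.9). It was 3.56 at Myf5 and Myf6 (1.14 to 6.86) and -3.73 at Pax7 (-9.51 to 2.09). These intervals ignore that the same bins were scored in both libraries, and they count bins of 1 island as independent. They are no test of genotype, also where 0 lies outside. In the lists as deposited, no difference reached 10 percentage points, the size used here as a call. As background, mutant cover was above wild-type cover by at least 10 points in 8.26% of all 15 kb tiles of the autosomes and chromosome X, 5.71% of 45 kb tiles and 3.84% of 102 kb tiles, and below it in 9.37%, 7.19% and 4.68%. With only islands in the upper 50% by score of their own list kept, Myod1 and Myog passed the call, at 25.3 and 17.3 points. Some wild-type islands there scored below the median of their list and were dropped. The 2 cutoffs were unlike, 63.3 for wild-type and 51.9 for mutant islands. The dropped wild-type Myog gene island, at 52.6, lay between them. The dropped wild-type Myod1 islands, at 49.0 and 45.4, lay below both. A mutant Myod1 island, at 50.3, was also dropped. The part of the unequal cutoffs in these passes was not tested. Myog also passed the call with islands within 2 kb joined, at 16.0 points, and the Pax7 difference was -9.61 points with islands of at least 2 kb. The tile shares above are for the lists as deposited. The share of all tiles passing the call under these other settings was not counted, so how usual such passes are is not known. The Myf5 and Myf6 difference rests on 1 mutant island of 1.6 kb at the window edge, and became 0 in the upper 50%, with shorter islands than 2 kb removed and with the window narrowed by 2 kb.

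**Figure D1:**
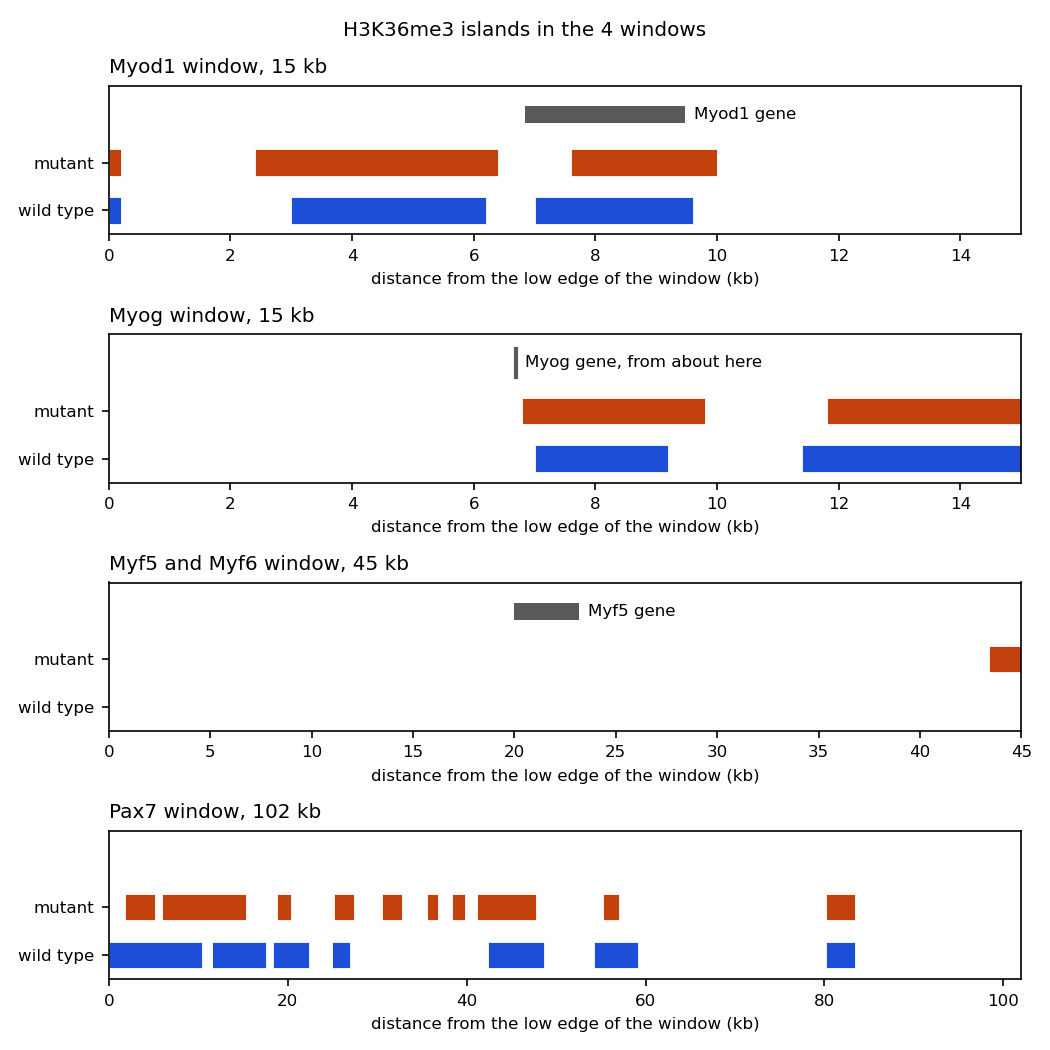
Islands of the mutant (orange, upper row of each panel) and wild-type library (blue, lower row) in the 4 windows, against distance from the low edge of the window in kb; grey marks show the gene span of Myod1 and Myf5 and the approximate start of Myog. Islands of both libraries lie over Myod1 and Myog, none lies over Myf5, and the Pax7 islands gather toward the low end of the window.

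Over the 4 windows, 12 of the 16 mutant islands and all 12 wild-type islands overlapped an island of the other library by at least 1 bp, where 74.3% of all mutant and 82.0% of all wild-type islands did. By length, 76.4% of the mutant cover was also covered in the wild type, against 74.7% over the whole mutant list, and 74.5% of the wild-type cover was covered in the mutant, against 72.2% over the whole wild-type list. The members' share is thus near that of the lists. Of the bases under an island of at least 1 library, the share under islands of both was 75.0% at Myod1, 81.8% at Myog, 0% at Myf5 and Myf6, 57.2% at Pax7 and 60.5% over the 4 windows, against 58.0% genome-wide.

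**Figure D2:**
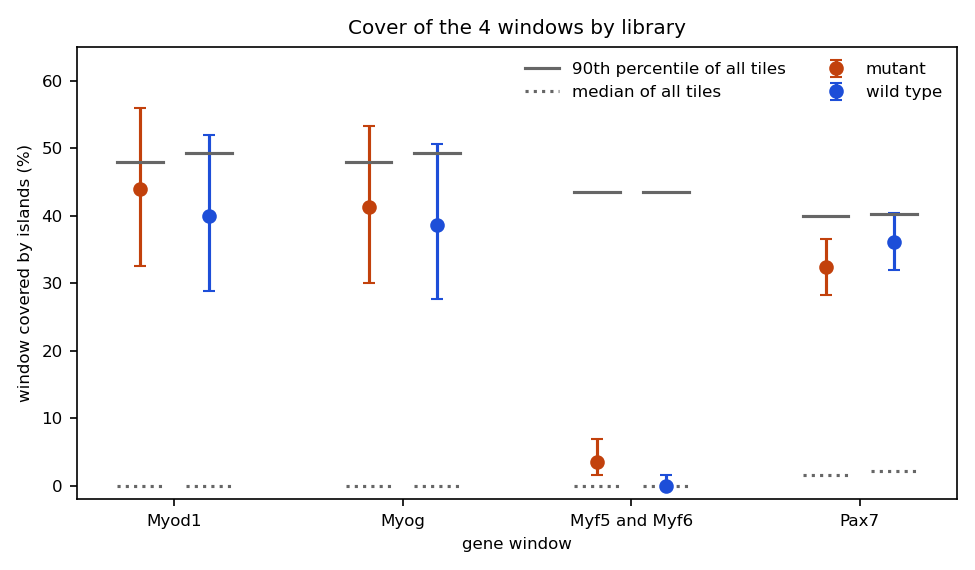
Percent of each window covered by islands in the mutant (orange, left) and wild-type library (blue, right), with exact binomial 95% intervals over 200 bp bins; grey lines give the median (dotted) and 90th percentile (solid) of all genomic tiles of the same length. Myod1, Myog and Pax7 lie between 32.4% and 44.0%, below the 90th percentile of 40.0% to 49.3%, and Myf5 with Myf6 lies at 3.56% and 0%.

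Myod1, the master regulator able to turn fibroblasts into muscle, lies on chromosome 7 (mm9, 53631850 to 53634470, 2621 bp), and an island lay over the gene in both libraries. The mutant island ran from 53632601 to 53635000 (2.4 kb) and covered 71.3% of the gene. The wild-type island ran from 53632001 to 53634600 (2.6 kb) and covered 94.2%. It began 751 bp inside the gene in the mutant and 151 bp inside it in the wild type, and in both it ran past the far end of the gene, by 530 bp in the mutant and 130 bp in the wild type. In these lists the position of an edge is fixed to 200 bp steps, so the low edges of the 2 islands were 3 steps apart and the high edges 2 steps. Per 200 bp window the gene island was among the denser ones of its list: its deposited score per window, 6.67 in the mutant and 5.81 in the wild type, was above that of 88.4% of mutant and 86.0% of wild-type islands. Scores grow with sequencing depth and length, so ranks are read within a list only.

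A further island lay on the low side of Myod1, whose neighbours in the GRCm38 gene table are Otog on that side and Kcnc1 on the other. It spanned 53627401 to 53631400 (4 kb, score 105.5) in the mutant and 53628001 to 53631200 (3.2 kb, score 45.4) in the wild type, and it ended 450 bp before the gene in the mutant and 650 bp before it in the wild type. All of the wild-type island was inside the mutant one. It ranked above 75.1% of mutant islands by score and above 30.7% of wild-type islands. A distal regulatory region and a noncoding RNA transcribed from it are known upstream of mouse Myod1; whether this island lies over them was not analysed here. The third island of the window reached only 200 bp into it, ending at 53625200 in both libraries, and no island lay between the gene island and the high edge. The next ones on that side began at 53653201 in the mutant and 53682601 in the wild type, which is 13.2 kb past the window in the mutant and 42.6 kb in the wild type. An island in both libraries was found in 23.8% of all 15 kb tiles, and 11.3% of tiles in the mutant and 12.8% in the wild type were covered to at least the same extent as Myod1. The locus lies in a well covered stretch, with 30.5% of the surrounding 500 kb on each side covered in the mutant and 35.0% in the wild type, where the chromosome as a whole had 10.6% in the mutant and 10.8% in the wild type.

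Myog, the gene of myogenin, begins at about 136186700 on chromosome 1 (mm9) and has a span of 2545 bp in the GRCm38 table. An island began just past this start in both libraries. In the mutant it spanned 136186801 to 136189800 (3 kb), from 101 bp to 3100 bp past the start. In the wild type it spanned 136187001 to 136189200 (2.2 kb), from 301 bp to 2500 bp past the start, wholly inside the mutant island. The mutant island had a score of 83.2, above 68.0% of its list, and the wild-type island 52.6, above 39.8% of its list. Per 200 bp window they stood higher, above 78.3% of mutant and 74.5% of wild-type islands. The start is known here only approximately, so the distance from it to the first marked base is approximate too.

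The other island of the Myog window was the densest of all 28 islands described. It ran from 136191801 to 136199000 in the mutant (7.2 kb) and from 136191401 to the same end in the wild type (7.6 kb), and so extended past the window. Its score of 518 in the mutant lay above 97.8% of islands and that of 452 in the wild type above 96.6%. Per 200 bp window, the score of 14.4 in the mutant lay above 99.5% of its list and that of 11.9 in the wild type above 99.1%. In the GRCm38 table the neighbour of Myog on this side is Ppfia4, which encodes a liprin scaffold protein; whether the island lies over it on mm9 was not analysed here. Of the 41.3% of the Myog window covered in the mutant and the 38.7% in the wild type, this island supplied 3200 bp in the mutant and 3600 bp in the wild type. The island at the gene supplied 3000 bp in the mutant and 2200 bp in the wild type. Tiles covered to at least the same extent were 12.0% of all in the mutant and 13.2% in the wild type. Cover over 500 kb on each side was 27.5% in the mutant and 25.8% in the wild type.

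**Figure D3:**
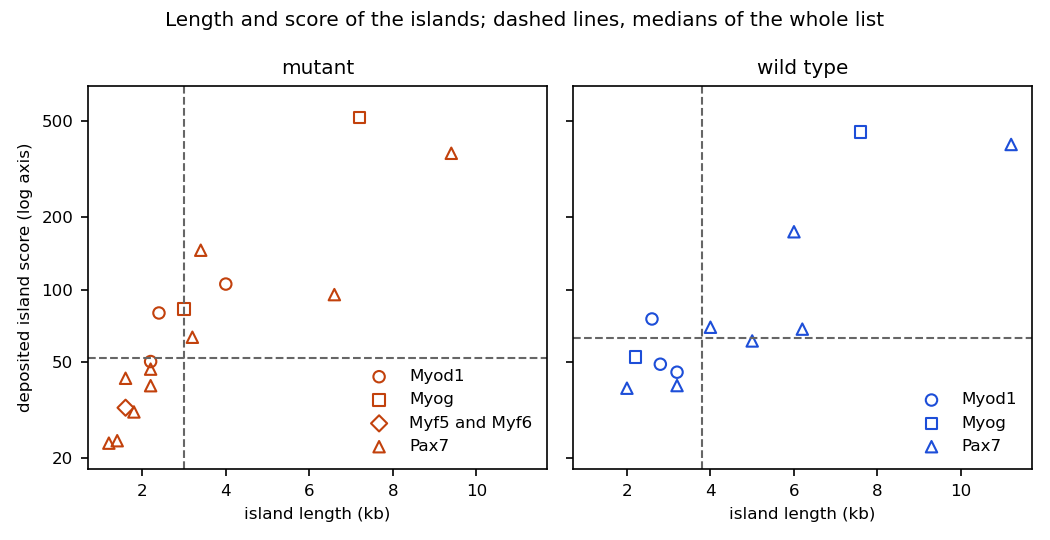
Deposited score (log axis) against length in kb of each island in the 4 windows, mutant on the left and wild type on the right; dashed lines are the medians of the whole list, 51.9 and 3 kb in the mutant and 63.3 and 3.8 kb in the wild type. The Myog-side island and the longest Pax7 island have the highest scores in both libraries, and the Myod1 and Myog gene islands lie to the left of or on the median length.

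Myf5 and Myf6 are neighbours on chromosome 10, with Lin7a and Ptprq as the flanking genes in the GRCm38 table, and no island lay over Myf5 (mm9, about 106920000 to 106923200) in either library. The wild-type list had 0 islands in the 45 kb window. The mutant list had 1, from 106943401 to 106945000 (1.6 kb), at the high edge, 20201 bp past Myf5, with no counterpart in the wild type. Its score of 32.4 was above 24.7% of the mutant list. As background, 40.8% of all 45 kb tiles held a mutant island and 40.9% a wild-type island. A mutant island with no wild-type island was found in 4.75% of all 45 kb tiles. The reverse was found in 4.89%, so the background of such tiles was alike in both directions. The position of Myf6 on mm9 was not given with the window, so which part of the window it takes up is not stated here.

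The window sat in a long stretch without islands. The free stretch around Myf5 was 310.4 kb in the mutant (106633001 to 106943400) and 386.4 kb in the wild type (106632401 to 107018800). Stretches of at least this length were 2.18% of the 69771 gaps between islands in the mutant and 2.06% of 58280 in the wild type, but they made up 50.5% of the total gap length in the mutant and 45.5% in the wild type. Thus much of the island-free genome lay in gaps as long as this. The nearest island on the low side lay at the same place in both libraries, starting at 106630001, 267 kb (mutant) and 267.6 kb (wild type) from the window. On the high side the nearest lay at 107014401 to 107017800 in the mutant and at 107018801 to 107021400 in the wild type. Cover of the 500 kb on each side was 1.72% in the mutant and 2.20% in the wild type, where chromosome 10 as a whole had 12.6% in the mutant and 12.8% in the wild type. The lists hold only stretches that passed the caller's threshold, so no island does not show that the mark is absent.

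Pax7 had islands along much of its window on chromosome 4 (139290001 to 139392000), 10 in the mutant and 7 in the wild type, and they lay mostly in the low-coordinate part. Pax7 is on the minus strand in the RefSeq promoter table and spans 96472 bp in the GRCm38 gene table, so this part of the window is the downstream end of the gene. Gm46873 overlaps Pax7 in the GRCm38 table, and which of these genes an island belongs to was not tested. In the 34 kb at the low end of the window islands covered 55.3% in the mutant and 65.9% in the wild type. In the middle 34 kb they covered 32.4% in the mutant and 32.9% in the wild type. In the 34 kb at the high end they covered 9.41% in both libraries, all of it by an island with the same edges in both, 139370201 to 139373400. No island of either library lay in the last 18.6 kb of the window. In the lowest 10.2 kb cover was 74.5% in the mutant and 100% in the wild type.

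The densest Pax7 islands were those at the downstream end. In the mutant these were 139291801 to 139295200 (3.4 kb, score 146) and 139296001 to 139305400 (9.4 kb, score 368). In the wild type they were 139289201 to 139300400 (11.2 kb, score 400) and 139301601 to 139307600 (6 kb, score 174). Per 200 bp window they lay above 95.5% and 93.5% of mutant islands and above 93.3% and 85.9% of wild-type islands. The wild-type pair reached 2600 bp farther on the low side and 2200 bp farther on the high side. The break within the pair also differed, with a gap of 0.8 kb from 139295201 to 139296000 in the mutant. In the wild type the gap was 1.2 kb, from 139300401 to 139301600. A number of islands therefore says little here, and covered length was used instead. Farther into the gene the islands were less dense. The 6.6 kb mutant island at 139331201 to 139337800 lay per window above 22.0% of its list, and the 6.2 kb wild-type island at 139332401 to 139338600, which overlapped it over 5400 bp, above 9.33% of its list. This pair was the least dense of the Pax7 islands in each library, so the fall was not steady. The islands beyond it lay above 37.3% and 50.5% of mutant islands and above 15.3% and 16.7% of wild-type islands.

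Over the Pax7 window, 7.6 kb was covered in the mutant only and 11.4 kb in the wild type only. A stretch with mutant islands alone lay between 139317401 and 139331200. Here the mutant had 3 islands with no counterpart, at 139320601 to 139322800 (2.2 kb, score 39.9), 139325601 to 139326800 (1.2 kb, score 23.1) and 139328401 to 139329800 (1.4 kb, score 23.6). The wild type had a gap of 15.4 kb from 139317001 to 139332400. The last 2 of these mutant islands scored below 30.3, the lowest score in the wild-type list, as did 20.5% of all mutant islands. With such islands removed the mutant cover of the window was 29.8% and the difference from the wild type -6.27 points. This filter took islands from the mutant list only, so it could only lower the mutant cover. It also set scores of 2 libraries of unlike depth against each other. In the other direction, wild-type islands at 139308401 to 139312400 (4 kb) and 139344201 to 139349200 (5 kb) were covered to 40.0% and 36.0% in the mutant, by shorter islands of 1.6 kb and 1.8 kb.

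The Pax7 window was more covered than most of the genome in both libraries. Of all 102 kb tiles, 14.2% in the mutant and 12.2% in the wild type were covered to at least the same extent, and an island in both libraries was found in 48.1% of tiles. A difference in cover of at least the size seen at Pax7, in either direction, was found in 48.6% of the 14983 tiles with an island in either library. The ratio of mutant to wild-type cover at Pax7 was 0.897. Cover was also lower in the mutant over chromosome 4 as a whole, at 11.0% in the mutant and 12.6% in the wild type, and the part of this in the Pax7 value was not tested. The window lay at a border. In the 500 kb on its low side, where Tas1r2 is the next protein-coding gene in the GRCm38 table, islands covered 39.0% in the mutant and 48.7% in the wild type. In the 500 kb on its high side, toward Klhdc7a, they covered 0.8% in the mutant and 0.4% in the wild type, and past 139418200 there was no island over the remaining 473.8 kb in either library.

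**Figure D4:**
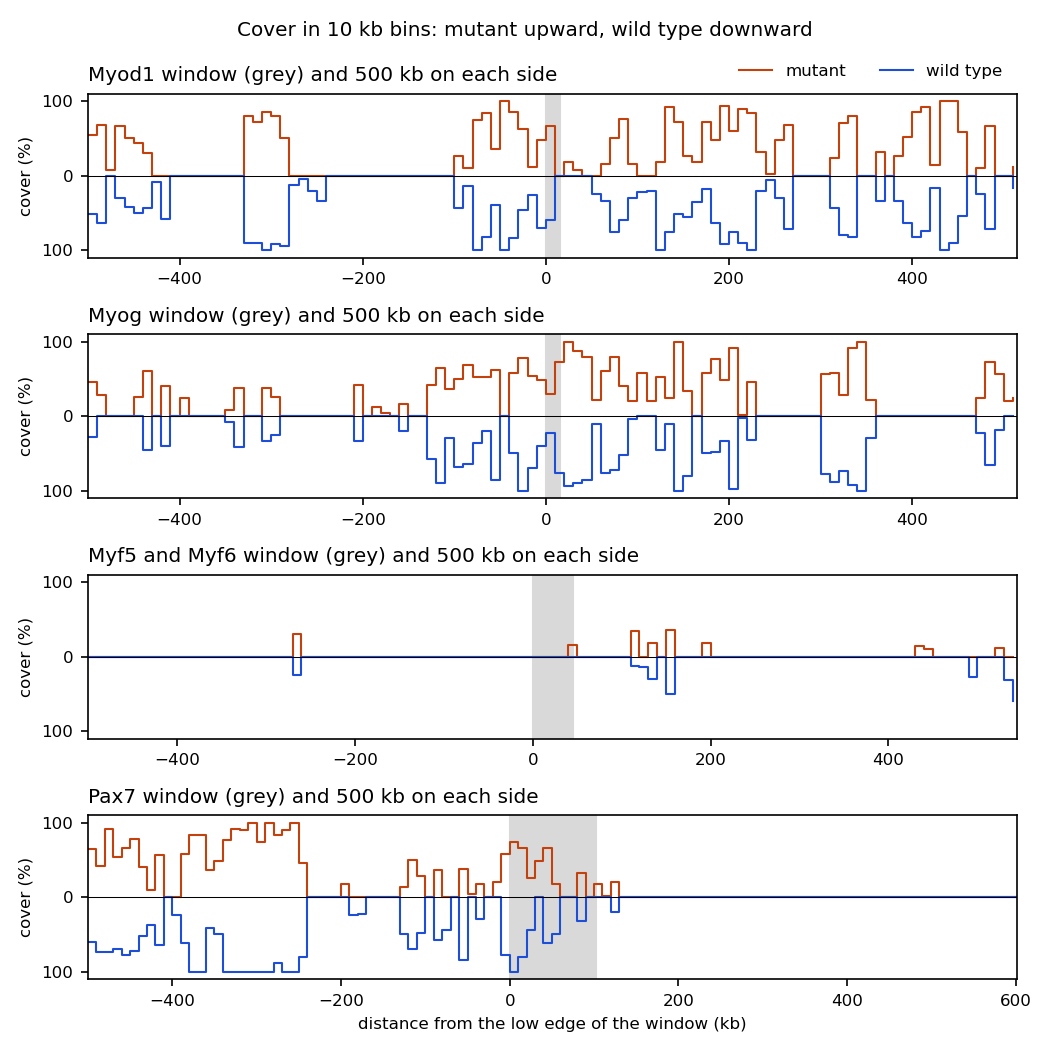
Percent of 10 kb bins covered by islands in the mutant (orange, drawn upward) and wild-type library (blue, drawn downward), against distance in kb from the low edge of each window (grey), with 500 kb on each side. Myod1 and Myog lie among covered bins, Myf5 and Myf6 in a stretch where 1.72% (mutant) and 2.20% (wild type) of the surroundings were covered, and Pax7 at the edge of a covered stretch.

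For the label of the cells, islands lay over Myod1 and Myog, which mark myoblasts and differentiating myocytes, in both libraries. No island lay over Myf5, which also marks myoblasts, in either library. The window that holds Myf5 and Myf6, another marker of these cells, had 0 islands in the wild type. In the mutant it had 1, at its high edge, and whether this lies over Myf6 was not analysed. The window of Pax7, the satellite cell marker, was covered to 32.4% in the mutant and 36.1% in the wild type. Islands over markers of fibroblasts or adipocytes were not analysed here, since no gene coordinates of the mm9 build were used beyond those of the windows. The depth, solved from scores, was 3.11 reads per 200 bp window in the mutant library and 2.82 in the wild-type library, and it moves with every comparison of the 2 libraries; its part in the differences was not tested.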

How the data were processed

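H3K36me3 ChIP-seq was made from 10 ng of DNA per library, per the labels' protocols. The deposited files list islands with an mm9 position and an island score. Per the submitters' processing notes, the authors used Bowtie 1.0.0 and SICER 1.1; the file names give a 200 bp window and a 600 bp gap. Use of the 2 input libraries and removal of duplicates are not given in the sources used here; input was not analysed. No list pools libraries.

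Windows and gene spans came from the rule that chose the members. The members and lists were chosen with earlier results of these data known. All islands overlapping a window were described, with the nearest island on each side. Cover was counted in 200 bp bins, with exact Clopper-Pearson intervals and, for differences, unpaired Newcombe intervals. It was compared with consecutive tiles of the same length, up to the last island of each autosome and X. Depth was solved from the scores of 1-window islands (14 in the mutant, 8 in the wild type). Positions count from 1. Computations ran in Python 3.11.15 with scipy 1.17.1, pandas 2.3.3 and numpy 2.4.6, figures used matplotlib 3.10.9, and the code was tested on simulated data. Alternatives were length, score, joining, window size and overlap; removal of mutant islands below the lowest wild-type score was chosen after seeing the data. The pathway genes and cell markers listed in the plan needed mm9 gene positions and were not used here.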

Additional observations from a re-analysis of the deposited data

How the results depend on the processing

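No paired analysis was possible because there was 1 library per genotype, and no replicate could be left out. Of 91 values under alternatives, 17 moved beyond the interval of the value as deposited. The 91 include counts of islands with a counterpart, which had no interval to leave. No difference was called as deposited, and alternatives brought Myod1 and Myog past the call. The share of all tiles passing it under those alternatives was not counted. With only the upper 50% by score kept per list, mutant cover was 22.2% at Pax7, wild-type cover was 26.1% at Pax7, 17.3% at Myod1 and 24.0% at Myog, mutant minus wild type was 25.3 points at Myod1 and 17.3 at Myog, and the mutant cover of Myf5 and Myf6 and its difference were 0. They were also 0 with islands of at least 2 kb and with windows narrowed by 2 kb. With islands of at least 2 kb, the mutant cover of Pax7 was 26.5% and the difference -9.61 points. With windows narrowed by 2 kb, Myod1 was covered to 58.2% in the mutant and 52.7% in the wild type. Mutant cover of Myog was 54.7% with islands within 2 kb joined, where the difference of 16.0 points passed the call, and 56.8% with the window widened by 5 kb. Equal covered length removed 0 mutant and 4428 wild-type islands. The cover of each window stayed exactly as deposited, so this setting did not probe these values. Beyond the window size and filters, the cause of each shift was not tested. Asking for 50% of the island to be covered left 7 of 10 mutant and 5 of 7 wild-type Pax7 islands with a counterpart.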
